A study of Mus musculus with 16 samples.

Results

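The 10 genes described here belong to the antioxidant programme of the transcription factor NRF2 in mouse liver. They were chosen by symbol, as the factor, its inhibitor and 8 of its well-known targets. All 10 were found among the 78317 genes of the deposited tables, and all 10 passed the filter on low counts that left 14781 genes for testing. RNA from whole liver of wild-type C57BL/6J mice, an inbred laboratory strain, was sequenced in 16 libraries, 4 in each of 4 groups. The diets of the mice began after arrival, at 6 weeks old, and lasted 10 weeks under 12 h of light and 12 h of dark. Females and males on normal diet received chow with 4.5% of its calories from fat (LabDiet). Females and males on high fat diet received a diet with 60% of its calories from fat (Research Diets). The diets came from different makers, so fat content and other ingredients cannot be told apart as the source of a diet difference. The study asked how a high fat diet acts on the liver in each sex.

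NRF2, encoded by Nfe2l2, is a transcription factor that is held at a low level because KEAP1 binds it and hands it to a ubiquitin ligase for degradation. Oxidants and electrophiles modify cysteines of KEAP1, NRF2 then accumulates, pairs with a small MAF protein and binds antioxidant response elements near its target genes. In liver these targets supply glutathione, reduce thioredoxin, remove quinones and break down heme. Since KEAP1 acts through degradation of NRF2, the control of NRF2 is largely at the protein and not the RNA level. The counts measure RNA alone.

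The antioxidant response element has a core of TGACNNNGC, read on either strand, and a promoter search shows which of the 10 genes carry these letters next to their start. RefSeq promoter windows (GRCm38.p6, 300 bases, 250 before and 50 after the start) were matched to 7 of the 10 genes in 9 windows. The core was present in 4 of these 9 windows, those of Nfe2l2, Gclm, Srxn1 and 1 of the 3 of Txnrd1, beside 12.4% of all 32851 windows. The windows of Keap1, Nqo1 and Cat did not hold these letters, and Hmox1, Gclc and Gsr had no window to search. The genes were chosen as NRF2 and its known targets, so this share is not separate support for that role. The longer form TGACTCAGC, which contains the core, was in 0 of the 9 windows and in 0.454% of all windows. The 4 stretches are printed 5′ to 3′ on the strand of the gene, with the core in capitals. They are chr2:75704849-75704913 on the minus strand for Nfe2l2 (65 bases, core 240 to 232 bases before the start) and chr3:122245377-122245477 on the plus strand for Gclm (core 134 to 126 bases before the start). The others are chr10:82859068-82859168 on the plus strand for Txnrd1 (core 92 to 84 bases before the start) and chr2:152105541-152105570 on the plus strand for Srxn1 (core 29 to 37 bases after the start).
Nfe2l2: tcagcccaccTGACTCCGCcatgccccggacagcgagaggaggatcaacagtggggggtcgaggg
Gclm: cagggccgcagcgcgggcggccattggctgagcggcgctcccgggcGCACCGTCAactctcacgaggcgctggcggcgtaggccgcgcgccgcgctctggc
Txnrd1: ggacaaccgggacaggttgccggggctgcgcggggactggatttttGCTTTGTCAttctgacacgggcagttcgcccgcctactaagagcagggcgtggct
Srxn1: ggcagtgggcaGCTAGGTCAgagtgagaca
In Nfe2l2 the core reads forward, and in Gclm, Txnrd1 and Srxn1 it is on the opposite strand and appears as its reverse complement. A match describes the letters and is not evidence of binding. These 4 genes include both genes called higher on high fat diet in females, described later, and also Gclm and Txnrd1, which were not called with diet in either sex. A link between the core and the diet calls was not tested.

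Library totals ran from 27566339 to 41420589 expected counts in females on normal diet and from 22682339 to 29200728 in females on high fat diet. In males the totals were 24569706 to 38843167 on normal diet and 22228115 to 29173327 on high fat diet. The 10 genes were covered by between 70 counts (the lowest library of Nqo1) and 98482 counts (the highest library of Cat). All libraries carry 1 batch number in the labels. The labels do not say outright that each replicate is a separate animal, so the p-values measure the spread between these samples. Male high fat diet replicates 2 and 3 were closer to each other than any other pair of libraries within a group, with a chi-square per gene of 4.07 against 20.8 for the next closest pair. They differed by more than counting noise and were kept as 2 samples, and where leaving both out changed a call, the value without them is given beside it. All 8 hepatocyte markers, albumin among them, were found and none was at 0 in any group. The summed level of these markers was lower on high fat diet, at 115054 to 130131 CPM (counts relative to library size) against 90364 to 103908 in females. It was 96389 to 105066 CPM on normal diet against 66968 to 91457 CPM on high fat diet in males. This sum is weighted to albumin, whose gene Alb alone ran from 37643 to 96184 CPM over the libraries. Of the 8 markers, 3 were called lower and 0 higher with diet in each sex, and 2 had estimates above 0 in each sex.

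Per unit of transcript length, the 10 genes spanned a wide range of abundance. Catalase was the most abundant of them on the TPM scale (transcript shares corrected for length), with a mean of 1137 TPM over the 16 libraries. The glutathione synthesis genes followed, Gclc at 90.2 TPM and Gclm at 67.5 TPM, and then Txnrd1 at 58.8 TPM. Nfe2l2 itself stood at 33.3 TPM, Gsr at 28.7 TPM, Srxn1 at 19.5 TPM and Hmox1 at 17.1 TPM. Keap1, at 13.6 TPM, and Nqo1, at 9.21 TPM, were the least abundant. The spread between libraries also differed. For Nqo1 the highest library was 6.22 times the lowest in CPM, for Hmox1 4.4 times, and for Keap1 1.32 times. All other values per library are CPM on library sizes normalised with TMM (trimmed mean of M values), a scale that compares samples for 1 gene.

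**Figure D1:**
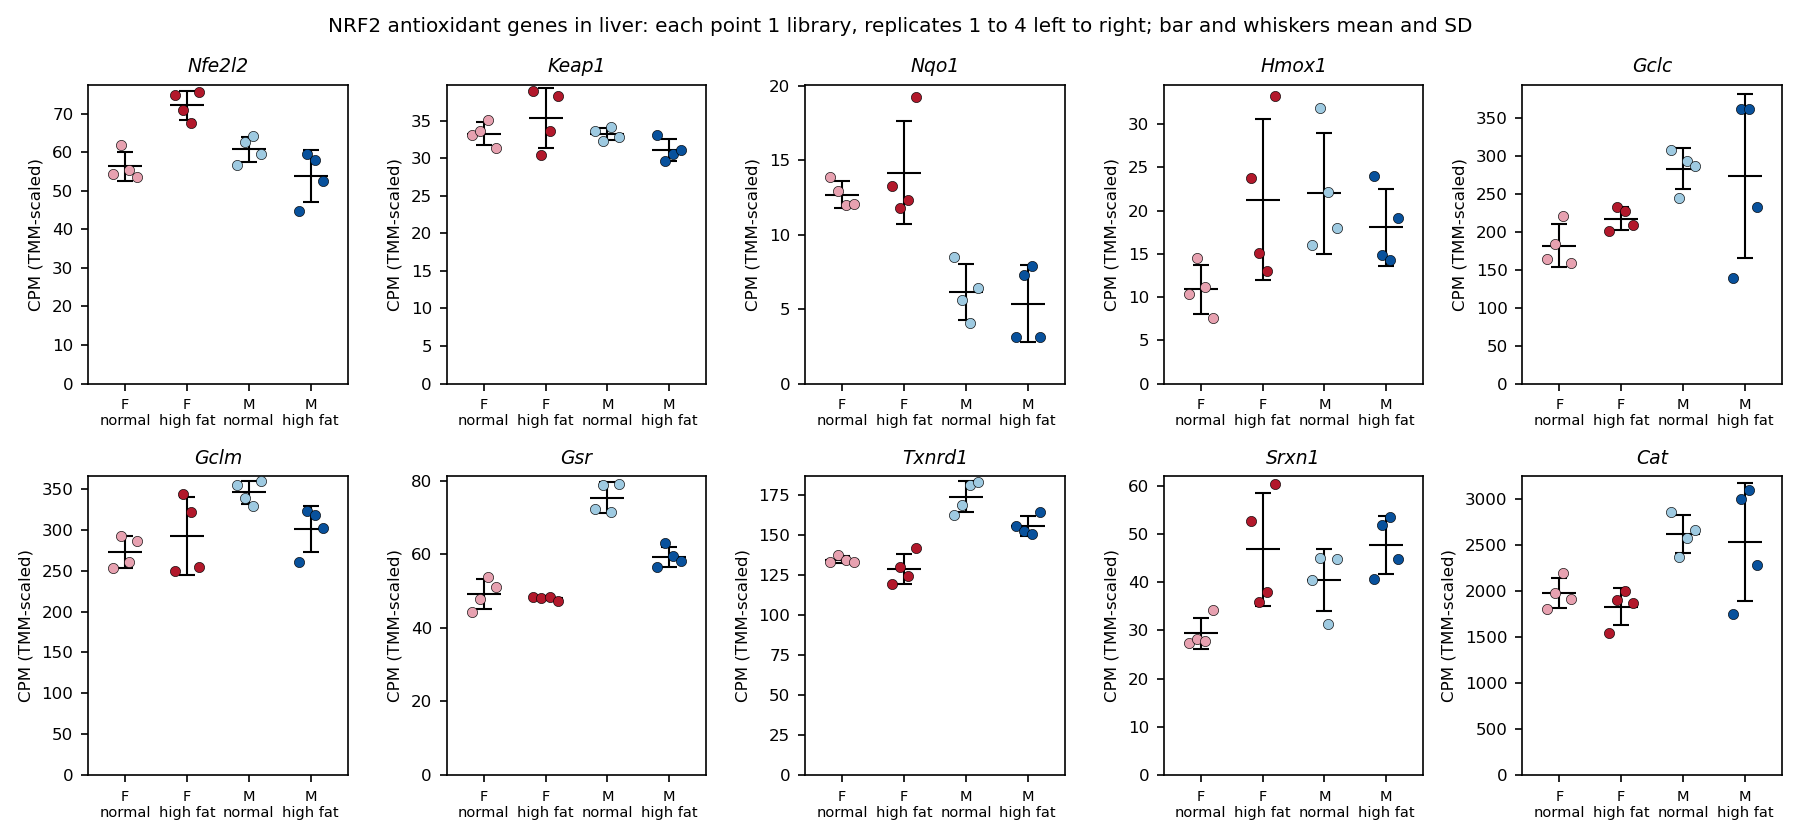
Level of each of the 10 genes in the 16 libraries. Each panel is 1 gene with its own axis in TMM-scaled CPM starting at 0, points are libraries in the 4 groups, and bars are the group mean ± SD (n = 4). Nfe2l2 was highest in the 4 female high fat diet libraries (67.6 to 75.6 CPM), and Gclc, Nqo1 and Cat each formed a high and a low pair among the male high fat diet libraries.

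In females, the high fat diet was accompanied by more Nfe2l2 and more Srxn1 RNA, while the other 8 genes were not called. Of the 10 genes, 2 were called, both higher, beside 11.5% of all tested genes called in either direction (5.74% higher and 5.76% lower). At 2 of 10 genes, the share is near that background. The median log2 fold change of the 10 genes was 0.13, and that of all tested genes was 0.0019. Of the 10 estimates, 7 were above 0, but the 3 below 0 (Gsr, Txnrd1 and Cat) turned positive when libraries were scaled by their totals or when TPM was used. Those scalings moved the median of all genes in this comparison by between 0.15 and 0.22 on the log2 scale. The share of calls that were higher was 49.9% of 1700 genes with TMM and 86.2% of 2690 with library totals alone.

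Nfe2l2 (ENSMUSG00000015839.7), the gene of the factor itself, stood at 54.5, 62, 55.5 and 53.5 CPM in the 4 female libraries on normal diet. It stood at 75, 71, 67.6 and 75.6 CPM in the 4 female libraries on high fat diet. Every high fat diet library lay above every normal diet library. Its means were 56.4 ± 3.81 and 72.3 ± 3.76 CPM (SD, n = 4 each), a 1.28-fold rise (log2 fold change 0.36 ± 0.10 SE, adjusted p = 0.0224, by edgeR's quasi-likelihood test with Benjamini-Hochberg adjustment). The call did not hold when normal diet replicate 1 (adjusted p = 0.0517) or 4 (0.0568) of the females was left out, nor without female high fat diet replicate 4 (0.0682), within a range over all 26 alternatives of 0.00169 to 0.0727.

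Srxn1 (ENSMUSG00000032802.9) encodes sulfiredoxin, which repairs peroxiredoxins that peroxide has inactivated. Its levels were 27.4, 28.2, 27.8 and 34.2 CPM in females on normal diet. On high fat diet they were 52.7, 36, 38 and 60.3 CPM. The groups did not overlap, and replicates 1 and 4 of the high fat diet group stood above replicates 2 and 3. The means were 29.4 ± 3.2 and 46.8 ± 11.7 CPM (SD, n = 4 each), a 1.59-fold rise (log2 fold change 0.67 ± 0.16 SE, adjusted p = 0.0118). Without female high fat diet replicate 4 the adjusted p was 0.0528, and the range over the alternatives was 0.00211 to 0.0528. Nfe2l2 and Srxn1 were the only 2 of the 10 genes whose groups did not overlap, beside 18.3% of all tested genes.

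Hmox1 (ENSMUSG00000005413.9) encodes heme oxygenase 1, which breaks heme down to biliverdin, carbon monoxide and iron and is known to be high in macrophages that clear red cells. It was at 10.4, 14.5, 11.1 and 7.57 CPM in females on normal diet. It was at 23.8, 15, 13 and 33.3 CPM in females on high fat diet. Replicates 1 and 4 of the high fat diet group were far above the others, and 3 of the 4 lay above every normal diet library. The mean was 1.95-fold higher, at 10.9 ± 2.86 against 21.3 ± 9.29 CPM (SD, n = 4 each), and missed the threshold (log2 fold change 0.97 ± 0.30 SE, adjusted p = 0.0514). It passed in 9 of 26 alternatives, DESeq2 (adjusted p = 0.00858) and library totals (0.0199) among them, in a range of 0.00858 to 0.165. Leaving out 1 library gave the call for female normal diet replicate 2 (0.0498), female high fat diet replicates 2 (0.0394) and 3 (0.0232), male normal diet replicate 2 (0.0377) and male high fat diet replicate 1 (0.0458). Markers of Kupffer cells, the resident macrophages of the liver, were also higher in sum: all 8 were found and none was at 0. Their summed level was 282 to 415 CPM in females on normal diet and 467 to 674 CPM in females on high fat diet, highest in replicate 4. Of the 8, Cd5l and Csf1r were called higher in females. Of 8 markers of recruited macrophages, 5 were called higher and 0 lower in females, beside 5.74% and 5.76% of all tested genes. Their summed level was 62.3 to 78.7 CPM in females on normal diet. On high fat diet it was 80.8, 68.6, 65 and 109 CPM in female replicates 1 to 4. This sum is weighted to Spp1, which alone ran from 39.7 to 82.6 CPM over the libraries. The median log2 fold change of the 8 recruited macrophage markers with diet was 1.55 in females and 1.39 in males. In males 4 of these 8 were called higher and 1 lower with diet. The part of either cell type in the Hmox1 levels was not tested. In bulk liver, fewer cells of a type and less RNA per cell cannot be told apart.

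The other 7 genes gave smaller estimates in females. Keap1 (ENSMUSG00000003308.16), the inhibitor, had means of 33.3 ± 1.56 and 35.3 ± 4.01 CPM (SD, n = 4 each; log2 fold change 0.086 ± 0.088 SE, adjusted p = 0.567). Nqo1 (ENSMUSG00000003849.9), the quinone reductase, had a log2 fold change of 0.16 and 1 high fat diet library, replicate 4, at 19.3 CPM above the rest of its group at 11.8 to 13.3 CPM. For the subunits of glutamate-cysteine ligase, the first enzyme of glutathione synthesis, the log2 fold changes were 0.26 for the catalytic Gclc (ENSMUSG00000032350.10) and 0.10 for the modifier Gclm (ENSMUSG00000028124.17). Glutathione reductase Gsr (ENSMUSG00000031584.17), thioredoxin reductase Txnrd1 (ENSMUSG00000020250.12) and catalase (ENSMUSG00000027187.11) stood at -0.036, -0.062 and -0.11. Keap1 overlaps an antisense gene, and Gclm overlaps a pseudogene and another transcript, in the supplied GENCODE M21 annotation. The antisense gene and the other transcript lie on the opposite strand, and the counting is not stated to use strand. The pseudogene lies on the strand of Gclm, so counting by strand would not separate it. The values of Keap1 and Gclm carry these uncertainties. On log2(TPM + 1), Keap1, Hmox1 and Gclm were called higher in addition, for a total of 5 genes. On that scale 2926 of all genes were called, 90.4% of them higher, and the median of all genes was 0.15.

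In males, the high fat diet was accompanied by less Gsr RNA, and no rise was called. Of the 10 genes 1 was called, beside 11.4% of all tested genes (6.03% higher and 5.36% lower), a share near that background. The median log2 fold change was -0.17 against 0.011 over all tested genes, and 9 of the 10 estimates were below 0. With library totals alone, Gclc and Cat turned positive, and that scaling moved the median of all genes by 0.092. In this comparison the share of calls that were higher was 52.9% of 1684 genes with TMM, 74.2% of 1830 with library totals and 67% of 1342 on log2(TPM + 1).

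Gsr encodes glutathione reductase, which returns oxidised glutathione to its reduced form with NADPH. Its levels were 72.4, 78.7, 71.4 and 79.1 CPM in males on normal diet. On high fat diet they were 56.5, 63, 59.5 and 58.2 CPM. All 4 high fat diet libraries were below all 4 normal diet libraries, as 59.3 ± 2.76 against 75.4 ± 4.08 CPM (SD, n = 4 each). The fall was 1.27-fold (log2 fold change -0.35 ± 0.082 SE, adjusted p = 0.0109), and it was called in each of the 16 fits that left out 1 library. It lost the call with library totals (adjusted p = 0.0644), without the filter on low counts (0.079) and on log2(TPM + 1) (0.103), over alternatives that ran from 0.000237 to 0.104.

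Gclm was the other gene whose male groups did not overlap, so 2 of 10 beside 18.5% of all tested genes. It was at 355, 339, 329.7 and 360.2 CPM on normal diet and 260.4, 324, 318 and 303 CPM on high fat diet, and it was not called (log2 fold change -0.20 ± 0.12 SE, adjusted p = 0.281). For 6 of the remaining genes, the log2 fold changes were -0.18 for Nfe2l2, -0.094 for Keap1 and -0.16 for Txnrd1. They were -0.19 for Nqo1, -0.29 for Hmox1 and 0.24 for Srxn1, with adjusted p-values from 0.232 to 0.714 over these 6. Nfe2l2 in males was at 56.7, 62.6, 64.3 and 59.7 CPM on normal diet. It was at 44.7, 59.6, 58.1 and 52.6 CPM on high fat diet, with replicate 1 lowest and the groups overlapping.

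The 4 male high fat diet libraries did not form an even group. Gclc was at 139, 361, 361 and 232 CPM in replicates 1 to 4, against 307, 244, 293 and 287 CPM in males on normal diet. Catalase, the peroxisomal enzyme that breaks down hydrogen peroxide, was at 1748, 2998, 3104 and 2285 CPM against 2864, 2371, 2577 and 2666 CPM. Nqo1, at 3.16, 7.26, 7.9 and 3.1 CPM against 8.52, 5.62, 4.06 and 6.42 CPM, had the same arrangement. In all 3 genes, replicates 2 and 3 were high and replicates 1 and 4 were low, and for Gclc and Cat the normal diet group lay between. Hmox1 was arranged the other way, at 24, 14.9, 14.3 and 19.1 CPM, with replicates 2 and 3 lowest. Summed hepatocyte markers, weighted to albumin, were 66968 and 68344 CPM in replicates 1 and 4 and 89766 and 91457 CPM in replicates 2 and 3. Summed Kupffer cell markers were 465 and 352 CPM in replicates 1 and 4 and 267 and 232 CPM in replicates 2 and 3. The part of either in these levels was not tested. In the main fit the log2 fold change with diet in males was -0.049 for Gclc (adjusted p = 0.914) and -0.048 for Cat (0.88). With replicates 2 and 3 both left out, a choice made after seeing the data, Nqo1 was called lower in males (log2 fold change -0.98, adjusted p = 0.0289), and Gclc stood at -0.61 (0.0511). The range over all alternatives was 0.0289 to 0.993 for Nqo1 and 0.0511 to 1 for Gclc.

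**Figure D2:**
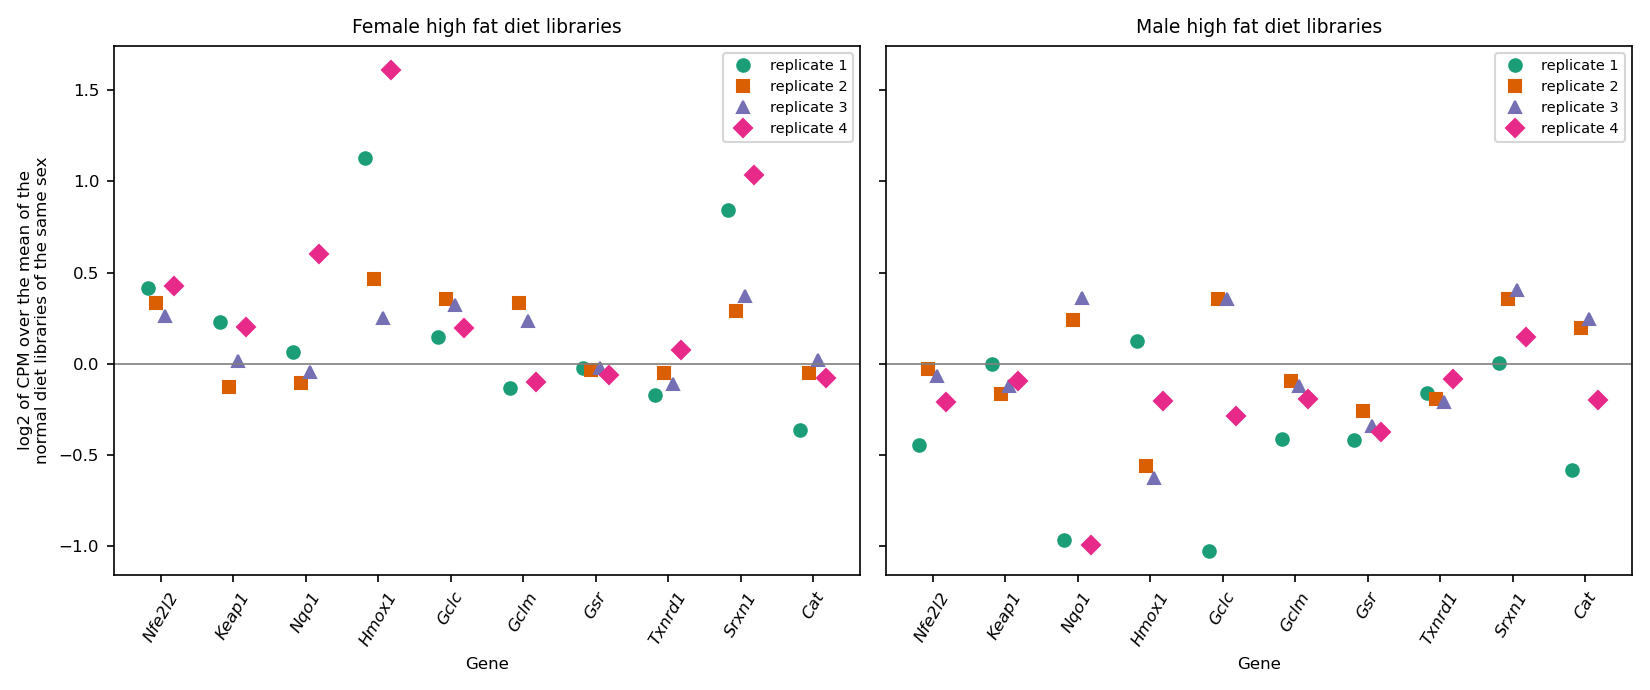
Each high fat diet library set against the mean of the normal diet libraries of the same sex, as a log2 ratio of TMM-scaled CPM, for the 10 genes. Points are single libraries and 0 marks the normal diet mean. All 4 female points lie above 0 for Nfe2l2, Srxn1, Hmox1 and Gclc and below 0 for Gsr. All 4 male points lie above 0 for Srxn1 and below 0 for Gsr, Nfe2l2, Keap1, Gclm and Txnrd1, and those of Gclc, Cat and Nqo1 split on both sides.

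The diet changes of the sexes, which share no library, were then compared directly. The median of the 10 differences (the change in females minus that in males) was 0.31 on the log2 scale, against -0.0062 over all tested genes. None of the 10 genes was called by edgeR's quasi-likelihood test (0 of 10), beside 0.677% of all tested genes (0.264% higher and 0.413% lower). At an unadjusted p under 0.05 there were 3, Nfe2l2, Hmox1 and Gsr, and DESeq2 called 1, Nfe2l2. DESeq2 called 341 of all genes in this comparison, against 100 by edgeR. The share of all genes at that unadjusted p was not computed. The Nfe2l2 difference was 0.54 ± 0.14 (SE, adjusted p = 0.0839, range over 25 alternatives 0.0118 to 0.209). It was called also with library totals, on log2(TPM + 1) and log2(TPM + 0.1), and without male high fat diet replicates 2 and 3 (0.68, adjusted p = 0.034). The TPM scales moved the median of all genes here by 0.11 and 0.15. All 4 female libraries on high fat diet stood above, and all 4 male ones below, the normal diet mean of their own sex. For Hmox1 the difference was 1.25 ± 0.42 (SE, adjusted p = 0.232) and for Gsr 0.31 ± 0.12 (SE, adjusted p = 0.26). Srxn1, called in females and not in males, differed between them by 0.43 ± 0.22 (SE, adjusted p = 0.434). A difference of diet response between the sexes was therefore not called for Srxn1, whose male libraries on high fat diet, at 40.5, 51.7, 53.4 and 44.8 CPM, were in the range of the female ones.

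**Figure D3:**
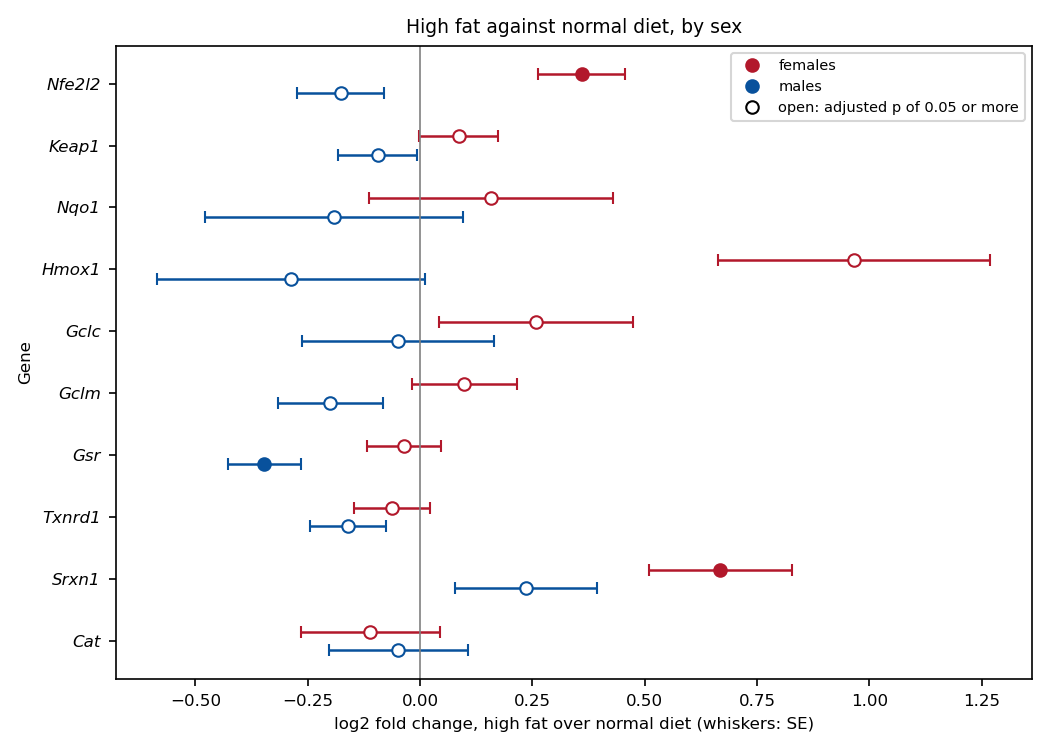
Change on high fat diet in each of the 10 genes, for females and for males. The axis is the log2 fold change over normal diet, points are edgeR estimates and bars ± 1 SE. Filled points passed an adjusted p of 0.05: Nfe2l2 and Srxn1 in females and Gsr in males.

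On normal diet, females had more Nqo1 and less Hmox1, Txnrd1 and Gsr RNA than males. These 4 of 10 calls, 1 higher and 3 lower in females, stand beside 15.7% of all tested genes (7.03% higher and 8.68% lower). The median difference (females minus males) was -0.39 on the log2 scale against -0.002 over all tested genes. The 2 groups did not overlap for 7 of the 10 genes, beside 22% of all tested genes. This comparison was little touched by scaling, since no alternative moved the median of all genes by more than 0.027.

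Nqo1 encodes a reductase that takes quinones to hydroquinones and so keeps them from cycling with oxygen. It was at 13.9, 12.9, 12 and 12 CPM in females and 8.52, 5.62, 4.06 and 6.42 CPM in males on normal diet. The highest male library was well under the lowest female one. The mean was 2.06-fold higher in females (log2 fold change 1.04 ± 0.28 SE, adjusted p = 0.0193). This rested on few counts in males, and the call was lost without female replicate 1 (adjusted p = 0.0542) or 2 (0.0511), or male replicate 2 (0.0547) or 3 (0.0665). Its adjusted p ran from 0.00157 to 0.0704 over all alternatives.

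Gsr was the most clearly separated gene, at 44.2, 47.7, 53.8 and 51 CPM in females against the male levels given above. The female mean, 49.2 ± 4.11 CPM, was lower than the male one, 75.4 ± 4.08 CPM (SD, n = 4 each; log2 fold change -0.62 ± 0.082 SE, adjusted p = 7.7e-05), and it was called in all 26 alternatives. Txnrd1 encodes the cytosolic enzyme that keeps thioredoxin reduced. It was at 133, 137, 134 and 133 CPM in females and 163, 169, 181 and 183 CPM in males. The female libraries were tightly grouped and all below the males (log2 fold change -0.37 ± 0.085 SE, adjusted p = 0.00685). Hmox1 was lower in females, with male levels of 16.1, 31.8, 22.1 and 17.9 CPM on normal diet, all above the highest female library (log2 fold change -1.02 ± 0.30 SE, adjusted p = 0.0339). Its call was lost without female replicate 1 (adjusted p = 0.0888), 3 (0.0702) or 4 (0.0927), and without male replicate 2 (0.106) or 3 (0.0744), over a range of 0.00461 to 0.109. Summed Kupffer cell markers were 263 to 407 CPM in these males and overlapped the females, and summed red blood cell markers were 391 to 556 CPM in males and 232 to 500 CPM in females. The part of these cells in the Hmox1 difference was not tested.

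Gclc, Gclm and Cat were also lower in every female library than in every male library on normal diet and were not called. Gclc was at 164, 184, 220.5 and 158 CPM in females (log2 fold change -0.64 ± 0.22 SE, adjusted p = 0.0528). Gclm was at 253, 292, 260.5 and 286 CPM in females (log2 fold change -0.34 ± 0.12 SE, adjusted p = 0.0547). Cat was at 1809, 1985, 2196 and 1919.6 CPM in females (log2 fold change -0.41 ± 0.16 SE, adjusted p = 0.0823). Over the 26 alternatives Gclc was called in 9 (range 0.00359 to 0.139), Gclm in 7 and Cat in 3 (range 0.0195 to 0.199). Without male high fat diet replicates 2 and 3, which enter this contrast through the shared spread, Gclc (0.00723) and Cat (0.0271) were called. Srxn1 overlapped between the sexes, from 31.2 to 45.0 CPM in males on normal diet (log2 fold change -0.46 ± 0.16 SE, adjusted p = 0.0576), and was called in 5 of the 26. DESeq2 called 7 genes, the 4 named above with Gclc, Gclm and Srxn1. It also called more genes in all, 2895 against 2322 by edgeR. Nfe2l2 and Keap1 gave differences of -0.11 and 0.0036.

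On high fat diet, females had more Nfe2l2 and Nqo1 and less Txnrd1, Gsr and Cat RNA than males. These 5 of 10 calls, 2 higher and 3 lower in females, stand beside 20.4% of all tested genes (8.84% higher and 11.6% lower). The median difference was -0.035 against -0.01 over all tested genes, and 4 genes did not overlap (Nfe2l2, Nqo1, Gsr and Txnrd1), beside 22.7% of all tested genes. With library totals alone 3 genes were called higher and 0 lower, since Keap1 was called and Txnrd1, Gsr and Cat were not, and that scaling moved the median of all genes by 0.13. The share of all calls that were higher was 43.2% of 3022 genes with TMM and 68.9% of 3366 with library totals. For Nfe2l2 the female libraries (67.6 to 75.6 CPM) were all above the male ones (44.7 to 59.6 CPM; log2 fold change 0.43 ± 0.10 SE, adjusted p = 0.00527). Nqo1 was at 13.3, 11.8, 12.3 and 19.3 CPM in females on high fat diet, 2.62-fold above the male mean (log2 fold change 1.39 ± 0.28 SE, adjusted p = 0.00322). Both were called in all 26 alternatives.

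The 3 genes called lower in females on high fat diet were less stable. Gsr was at 48.3, 48.1, 48.3 and 47.2 CPM in females, all below the males (log2 fold change -0.31 ± 0.082 SE, adjusted p = 0.0144), and was not called in 6 of 26 alternatives, in a range of 0.00354 to 0.352. Those 6 were library totals (0.146), no filter (0.126), only the groups compared (0.0581), both TPM scales (0.345 and 0.352), and male high fat diet replicates 2 and 3 left out (log2 fold change -0.26, 0.0996). Txnrd1 was at 119.5, 129.9, 125 and 142 CPM in females against 156, 152, 150.5 and 164 CPM in males (log2 fold change -0.27 ± 0.085 SE, adjusted p = 0.0298), and was not called in 16 of 26 alternatives. Cat was at 1540.3, 1906, 2007 and 1873 CPM in females, overlapping the males (log2 fold change -0.47 ± 0.16 SE, adjusted p = 0.0404), and was not called in 22 of 26. Without male high fat diet replicates 2 and 3, Cat stood at -0.14 (adjusted p = 0.545, range over alternatives 0.00717 to 0.545). Hmox1, called lower in females on normal diet, gave 0.24 on high fat diet (adjusted p = 0.602), while Gclm gave -0.043 and Srxn1 -0.027. Gclc gave -0.33 (adjusted p = 0.287) and was called lower in females without male high fat diet replicate 1 (0.0269).

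**Figure D4:**
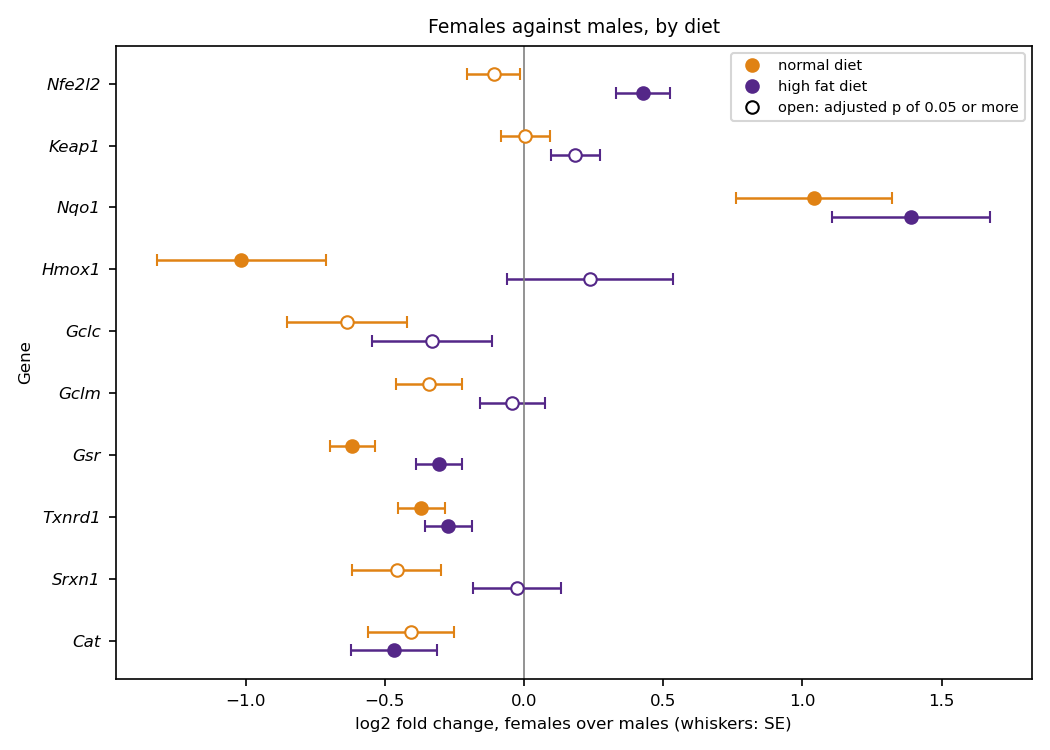
Difference between the sexes in each of the 10 genes, on normal and on high fat diet. The axis is the log2 fold change of females over males, points are edgeR estimates, bars ± 1 SE, and filled points passed an adjusted p of 0.05. Nqo1 lies to the right of 0 on both diets, and Gsr and Txnrd1 to the left on both.

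Other genes of the pathway were followed in 5 lists. Their counts stand beside 11.5% of all tested genes called with diet in females and 11.4% in males. For the difference of diet changes the share was 0.677%, for sex on normal diet 15.7% and for sex on high fat diet 20.4%. Counts such as 2 of 12 or 2 of 14 with diet in females are near that background. These shares are those of edgeR. DESeq2 called 2250 of all genes with diet in males and 2895 for sex on normal diet. Limma on log2(TPM + 1) called 1342 and 1750, in the same order. The share of all genes at an unadjusted p under 0.05 was not computed, so list counts at that level have no background here. Among 12 tested proteins that pair with, compete with, degrade or release NRF2, 2 were called in females on high fat diet, both higher, with a list median of 0.05. They were Mafk, a small MAF partner (log2 fold change 0.46 ± 0.13 SE, adjusted p = 0.0247), and Sqstm1, the autophagy receptor that binds KEAP1 (log2 fold change 0.38 ± 0.12 SE, adjusted p = 0.041). Mafk kept its call in 12 and Sqstm1 in 8 of the 16 fits without 1 library. In males edgeR called 0 of 12, with a list median of -0.058, while 4 had an unadjusted p under 0.05, DESeq2 called 2 and limma called 0. On normal diet 2 of 12 were lower in females, Sqstm1 (log2 fold change -0.49 ± 0.12 SE, adjusted p = 0.00815) and Bach1, a repressor that competes for the same elements (log2 fold change -0.49 ± 0.15 SE, adjusted p = 0.0318), the latter in 10 of the 16 fits.

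Of 31 other tested genes known as NRF2 targets in liver, 20 had estimates below 0 on high fat diet in females and 26 in males with TMM scaling. In females 1 was called higher and 3 lower, with a list median of -0.23, and in males 0 were called higher and 10 lower, with a list median of -0.36. In males 16 had an unadjusted p under 0.05, DESeq2 called 0 higher and 11 lower, and limma on log2(TPM + 1) 0 higher and 8 lower. The same medians over all tested genes were 0.0019 and 0.011. With library totals alone the female split was 4 higher and 1 lower and the male split 0 higher and 7 lower. The glutathione S-transferases of the Gstm group, which conjugate glutathione to electrophiles, led the male calls. Gstm3 fell 4.41-fold in males, from 49.5 ± 3.98 to 11.2 ± 3.35 CPM (log2 fold change -2.14 ± 0.20 SE, adjusted p = 9.57e-06), and in females, from 48 ± 4.37 to 19.2 ± 5.51 CPM (log2 fold change -1.32 ± 0.20 SE, adjusted p = 0.000478). Gstm1 fell 2.24-fold in males (log2 fold change -1.16 ± 0.16 SE, adjusted p = 0.000253). Gstm4 fell 1.88-fold in males (log2 fold change -0.91 ± 0.14 SE, adjusted p = 0.00049) and was the 1 gene of the list called in the comparison of the diet changes (log2 fold change 1.17 ± 0.20 SE, adjusted p = 0.00629). These closely related genes can share reads, which RSEM divides between them, so their separate values are uncertain. The extent of sharing was not measured. In females, Osgin1, a growth inhibitor induced by oxidised lipids, was 2.01-fold higher (log2 fold change 1.00 ± 0.26 SE, adjusted p = 0.0196), and was not called when female replicate 1 of the normal diet (0.0589) or of the high fat diet (0.0651) was left out. Abcc4, an export pump for conjugates, was lower in females (log2 fold change -0.76 ± 0.20 SE, adjusted p = 0.0193), a call kept in 12 of the 16 fits. The Abcc4 call was lost with library totals (adjusted p = 0.0592) and by limma on log2(TPM + 1) (0.0735) and log2(TPM + 0.1) (0.115). The remaining female call was Me1, the cytosolic malic enzyme that makes NADPH (log2 fold change -0.89 ± 0.26 SE, adjusted p = 0.0377). Slc7a11, the cystine transporter, gave the largest estimate of the list in females and was at most 0.942 CPM in any library (log2 fold change 3.83 ± 1.47 SE, adjusted p = 0.0976). Me1 and Slc7a11 were picked out after their values were seen.

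Sex differences on normal diet were also present in this list, 4 higher and 5 lower in females. Gstp1, another glutathione S-transferase with closely related copies, was lowest relative to males at 199 against 2883 CPM (log2 fold change -3.85 ± 0.41 SE, adjusted p = 2.32e-05). Aox1, aldehyde oxidase, was at 40.1 against 107 CPM (log2 fold change -1.42 ± 0.22 SE, adjusted p = 0.000472). On high fat diet 6 were higher and 2 lower, and with library totals 11 were higher and 2 lower.

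Among 20 other tested antioxidant genes, 2 were higher and 2 lower with diet in females (list median -0.20), and 1 higher and 2 lower in males (list median -0.012). Ggct, which breaks down gamma-glutamyl peptides of the glutathione cycle, was higher on high fat diet in both sexes (log2 fold change 0.57 ± 0.12 SE, adjusted p = 0.00578 in females; log2 fold change 0.69 ± 0.12 SE, adjusted p = 0.00167 in males). Glrx, glutaredoxin, was lower in females (log2 fold change -0.88 ± 0.14 SE, adjusted p = 0.00067), and Gss, the second enzyme of glutathione synthesis, was lower in males (log2 fold change -0.64 ± 0.10 SE, adjusted p = 0.000825). Gss was also the other gene called lower in females (log2 fold change -0.33 ± 0.10 SE, adjusted p = 0.0446). Sod3, the extracellular superoxide dismutase, was higher in females (log2 fold change 0.43 ± 0.13 SE, adjusted p = 0.0399) in 8 of the 16 fits, and Prdx4 was lower in males (log2 fold change -0.45 ± 0.13 SE, adjusted p = 0.033) in 11. Without male high fat diet replicates 2 and 3, Prdx4 stood at -0.33 (adjusted p = 0.232, range over alternatives 0.00359 to 0.232). Prdx4 was also not called with library totals (0.0791). On normal diet 5 of the 20 were higher in females and 0 lower, beside 7.03% and 8.68% of all tested genes. They were led by Ggct (log2 fold change 0.82 ± 0.12 SE, adjusted p = 0.00024) and Glrx (log2 fold change 0.59 ± 0.14 SE, adjusted p = 0.00793). At an unadjusted p under 0.05 there were 7 of the 20, DESeq2 called 6 higher and 0 lower, and limma on log2(TPM + 1) called 4 higher and 0 lower.

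Of 14 peroxisomal genes, the compartment of catalase, 2 were lower with diet in females and 1 in males. They were Pex11a (log2 fold change -0.91 ± 0.25 SE, adjusted p = 0.0296) and Pex19 (log2 fold change -0.34 ± 0.10 SE, adjusted p = 0.0361) in females and Uox, urate oxidase (log2 fold change -0.53 ± 0.15 SE, adjusted p = 0.026), in males. Without 1 library in turn, Pex11a kept its call in 10, Pex19 in 9 and Uox in 12 of 16 fits. In the 10 other alternatives Pex11a kept it in 7, Pex19 in 5 and Uox in 6. With library totals Pex19 (adjusted p = 0.273) and Uox (0.0672) were not called. On library totals the female split was 1 higher and 1 lower, so the direction of this list depended on scaling. On normal diet 2 were lower in females, Scp2, a sterol carrier protein (log2 fold change -1.01 ± 0.11 SE, adjusted p = 1.06e-05), and Hao1, a hydroxyacid oxidase (log2 fold change -0.74 ± 0.13 SE, adjusted p = 0.00132). Of 9 genes of heme and iron handling, 2 were lower with diet in females, Alas1, the rate-limiting enzyme of heme synthesis in liver (log2 fold change -0.81 ± 0.23 SE, adjusted p = 0.0318), and Fech, which inserts iron into the ring (log2 fold change -0.30 ± 0.094 SE, adjusted p = 0.0452). Alas1 kept its call in 12 and Fech in 3 of the 16 fits without 1 library, and neither was called with library totals. In males edgeR, DESeq2 and limma called 0 of the 9, and 0 had an unadjusted p under 0.05. Blvra, which reduces the biliverdin that Hmox1 makes, was higher in females on normal diet (log2 fold change 0.46 ± 0.14 SE, adjusted p = 0.0359) in 10 of the 16 fits.

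**Figure D5:**
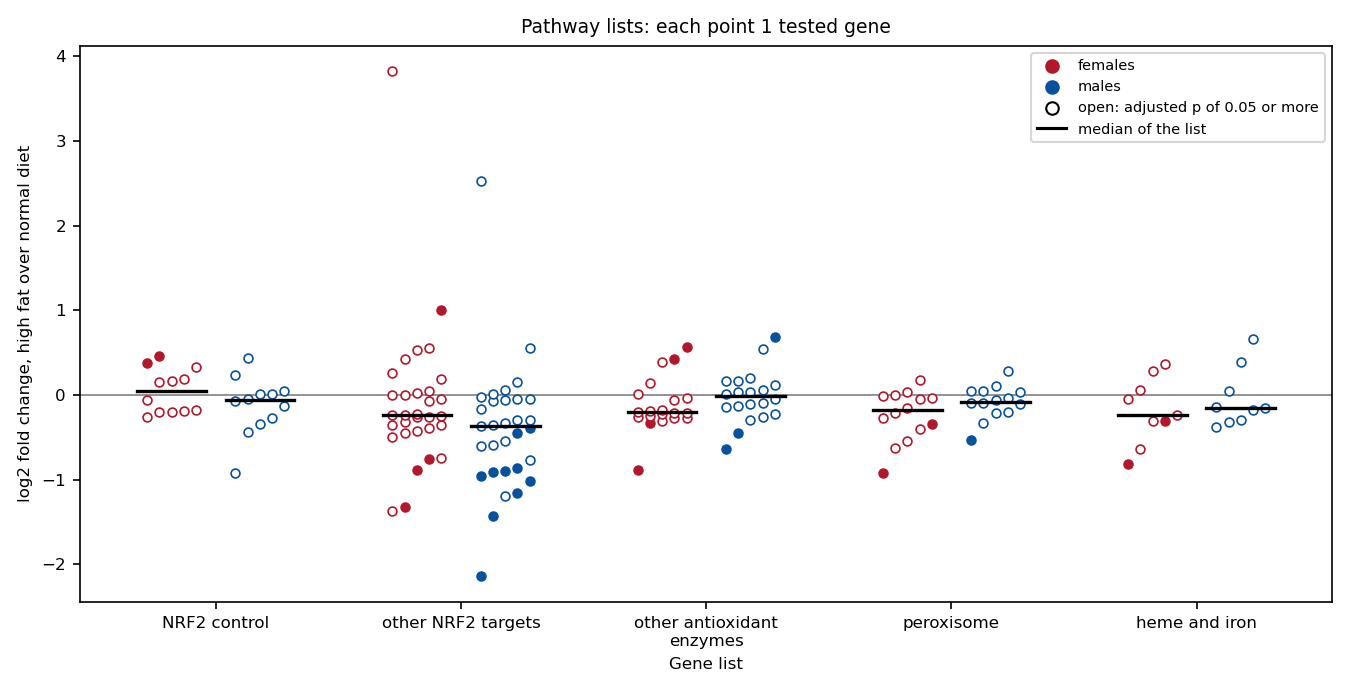
Change on high fat diet in 5 lists of related genes, for females and males. Each point is 1 tested gene as a log2 fold change from edgeR, filled where the adjusted p was under 0.05, and the bar is the list median. The other NRF2 targets had the lowest male median (-0.36), and the highest open point is Slc7a11, which was at most 0.942 CPM in any library.

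For the members called in any comparison, the tested genes with the most similar levels were listed by the root mean square difference of centred log2 CPM over the 16 libraries, which share the same 4 groups. For Nfe2l2 they were Nr1h2 and Dcaf11 (0.124 each), beside an SD of Nfe2l2 of 0.194. For Gsr they were Vcp (0.083) and Psmd2 (0.096), and for Txnrd1 Eif3c (0.078) and Hspa4 (0.078). For Srxn1 they were Mta3 (0.188) and Ppfibp2 (0.189), and for Cat Cdk18 (0.109) and Rnf123 (0.115). For Nqo1 the nearest genes were Serpina6 (0.287) and Hpgd (0.298), and for Hmox1 Grk3 (0.272) and Mvp (0.333). The smallest of these distances belong to genes of small spread, so distances are not comparable between the 7 genes.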

How the data were processed

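The authors deposited RSEM expected counts and TPM per gene for 16 mouse liver libraries, 1 column each. STAR, RSEM and the build GRCm39 are named, per the submitters' processing notes. Versions, the annotation and the use of strand are not given in the sources used here. Of the deposited expected counts, 4.89% of entries were not whole, and all were rounded. The deposited TPM are divided by effective length and were used for levels between genes and, with pseudocounts of 1 and 0.1, for limma alternatives. Symbols were matched to 51487 of 78317 identifiers, which held 98.97% of counts.

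Genes were filtered with filterByExpr of edgeR 4.0.16 (R 4.3.3), which kept 14781 genes with 99.94% of counts, and scaled by TMM. The robust quasi-likelihood test of edgeR was fitted to all 16 libraries with 1 mean per group, giving 5 contrasts: diet in females, diet in males, their difference (females minus males), and females minus males under either diet. Calls needed a Benjamini-Hochberg adjusted p under 0.05 over all tested genes, two-sided. The SE of a log2 fold change is its size over the root of its F statistic. Nqo1 had the fewest counts of the 10 genes. The fit was tested on simulated data.

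The alternatives were other size factors, library totals, no filter, only the groups compared, a replicate block, DESeq2 1.42.0, limma 3.58.1 on log2 TPM, and each library left out. Added after seeing the data were 2 settings, with replicates 2 and 3 of the male high fat diet group either averaged or removed. Replicate numbers were shared by the groups. The correlation of same-numbered samples' deviations ran from -0.159 to 0.18 over 24 pairs, with 4 over 0.1, all between replicates numbered 1. The main fit treated samples as unpaired, and weak correlations cannot exclude an effect shared by a replicate number. Beside the 10 genes, the text names from each of 5 lists the 3 called genes of smallest p in each diet contrast and the 2 of smallest p in the interaction and in sex on normal diet. It also names, for each member called, the 2 most similar genes among those whose log2 CPM averaged 1 or more, and says where a gene was picked after its values were seen. The members and lists were chosen with earlier results of these data known. Gene coordinates of the build of the counts were not used here. RefSeq promoter windows are of GRCm38.p6.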

Additional observations from a re-analysis of the deposited data

Results flagged for a closer look

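Srxn1 in female normal diet replicate 4 stood at 34.2 CPM, apart from the other 3 libraries of its group, which were at 27.4, 27.8 and 28.2 CPM. It was the 1 library set apart among 40 groups of 4 examined, 10 genes in each of 4 groups, and chance alone sets apart about 1 in 20. Gstm4, a glutathione S-transferase with closely related copies, had different diet changes in females and males, with a difference (females minus males) of 1.17 on the log2 scale (adjusted p = 0.00629 by edgeR's quasi-likelihood test, an interaction term). Its mean went from 29.7 to 35.5 CPM in females and from 35.0 to 18.6 CPM in males (n = 4 each). Of the 4 female libraries on high fat diet, the lowest was at 28.6 CPM, inside the range of the female libraries on normal diet. The highest of the 4 male libraries on high fat diet (22.4 CPM) was below the lowest male library on normal diet (32.1 CPM).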

How the results depend on the processing

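Over 50 member results and up to 26 alternatives, no called result changed sign, 68 of 1290 values lost a call, 47 gained one and 53 changed sign without being called. Genes called with diet in females were 1700, and 2690 with library totals, 2926 on log2(TPM + 1) and 2763 on log2(TPM + 0.1). For the difference of diet changes they were 100, 341 with DESeq2 and 58 when replicates 2 and 3 of the male high fat diet group were averaged. For sex on normal diet they were 2322, 2895 with DESeq2, 1820 without the filter and 2712 with only the groups compared. For sex on high fat diet they were 3022, and 1958 with only the groups compared. Members called with diet in females were 2, and 1 without the filter and 5 on either TPM scale. In males they were 1, 0 with library totals, without the filter or on either TPM scale, and 2 with male high fat diet replicates 2 and 3 both left out. For the difference they were 0, and 1 with library totals, DESeq2, either TPM scale, or both left out. For sex on normal diet they were 4, 7 with DESeq2, 1 without the filter and 8 with only the groups compared, and for sex on high fat diet 5, 3 with library totals, either TPM scale, both averaged or both left out, and 2 without the filter or with only the groups compared. The cause was not tested. Leaving out 1 library gave 947 to 1874 genes for diet in females, 1113 to 2043 for diet in males, 51 to 176 for the difference, 1325 to 2766 for sex on normal diet and 1974 to 3062 for sex on high fat diet. The members gave 0 to 3 (0 without female high fat diet replicate 4), 1 to 1, 0 to 0, 2 to 7 and 3 to 5. Nqo1 had the fewest counts, down to 70 in a library.

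Whether the replicate number pairs samples was not settled. With it as a block, the genes called were 1864 for diet in females, 1980 in males and 101 for the difference. They were 2685 for sex on normal diet and 3445 for sex on high fat diet. Without the block they were 1700, 1684, 100, 2322 and 3022, in the same order. Members called with the block were 2, 1, 0, 5 and 5, with Hmox1 lost (adjusted p = 0.0586) and Gclc (0.0352) and Gclm (0.0362) gained on normal diet.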
